A study of Mus musculus with 4 samples.

Results

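C1q-positive cells were picked out of single-cell RNA libraries of CD45+ leukocytes from mouse left lung grafts. A cell was a member when its unique molecular identifiers (UMIs, each 1 counted RNA molecule) for C1qa, C1qb and C1qc summed to at least 5. A cell was not a member when Marco, Krt79, Plet1, Atp6v0d2 and Ctsk, genes of alveolar macrophages, summed to 4 UMIs or more. Cells with S100a8 and S100a9 at 1% or more of their UMIs, or with a UMI of Cd3e or Cd79a, were not members either. The C1q minimum alone found 199 cells and the whole rule left 180, which is 0.741% of the 24291 cells kept. RvD1 recipient leukocytes held 8 members, vehicle recipient leukocytes 9, RvD1 donor leukocytes 80 and vehicle donor leukocytes 83, so that 163 members (90.6%) were donor cells.

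All mice were of the B6 strain, and no mutation or transgene is named. Left lungs were stored for 60 min at 4 °C and then for 45 min at 28 °C, transplanted orthotopically into B6 recipients and collected after 2 h. Recipients received 200 ng of resolvin D1 (RvD1), which cells form from the omega-3 fatty acid docosahexaenoic acid and which acts in the resolution of inflammation, in 200 µL of 1% ethanol, or the vehicle, intravenously just before the transplantation, per the labels' protocols. The series' design text words the grafts, not the recipients, as treated, so whether donor cells met RvD1 before or after transplantation is not settled here. CD45+ cells of recipient origin and of donor origin formed separate libraries, with 2 lungs pooled in each. This gave 4 groups of 1 library each: RvD1 recipient, vehicle recipient, RvD1 donor and vehicle donor. The labels do not say whether donor and recipient libraries share lungs. The RvD1 libraries were made with Cell Ranger 7.0.1 and the vehicle libraries with 6.1.1, per the file headers, so treatment, library and software version cannot be told apart.

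C1q is the recognition subunit of the classical complement pathway. It binds antibody in immune complexes and material on dying cells, and it also tags debris for uptake by phagocytes. Unlike most complement proteins, which come from the liver, C1q is made mainly by tissue macrophages and by some dendritic cells, from A, B and C chains that assemble in equal numbers. In the mouse lung, C1q transcripts are known from macrophages of the interstitium rather than from alveolar macrophages, and recruited monocytes can gain them as they mature.

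The C1q genes lie next to each other on the minus strand of chromosome 4 (GRCm38): C1qb at 136880129 to 136886187, C1qc at 136889804 to 136893065 and C1qa at 136895917 to 136898803. The promoters of C1qb and C1qc are shown because transcripts of these neighbours define the cells. Each window runs from 250 bases before to 50 bases after the start listed for that promoter, taken from RefSeq (GRCm38.p6). It is written 5′ to 3′ on the gene's strand. The listed start differs from the upstream end of the gene given above, and for C1qc it lies inside the gene. Capitals mark the core of the PU.1 site, searched as AGGAAGT or its reverse complement ACTTCCT. They also mark a partial MAF site, searched as TGCTGA or TCAGCA. Both searches covered both strands.
C1qb promoter, chr4:136886151-136886450, minus strand: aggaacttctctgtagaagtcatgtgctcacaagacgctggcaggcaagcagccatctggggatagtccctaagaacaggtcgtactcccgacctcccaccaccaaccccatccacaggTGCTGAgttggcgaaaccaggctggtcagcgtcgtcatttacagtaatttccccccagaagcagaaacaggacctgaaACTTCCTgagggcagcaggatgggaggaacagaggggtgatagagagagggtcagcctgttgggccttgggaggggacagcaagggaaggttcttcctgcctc
C1qc promoter, chr4:136892865-136893164, minus strand: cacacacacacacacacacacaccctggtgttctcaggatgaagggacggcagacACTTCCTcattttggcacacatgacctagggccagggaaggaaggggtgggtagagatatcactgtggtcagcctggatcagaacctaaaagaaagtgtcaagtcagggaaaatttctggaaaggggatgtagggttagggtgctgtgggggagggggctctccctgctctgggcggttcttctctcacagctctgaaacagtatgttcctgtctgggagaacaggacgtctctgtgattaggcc
The C1qb window held the PU.1 core, read on the strand opposite to the gene, 53 bases before the listed start. It held the partial MAF site 131 bases before that start. The C1qc window held the PU.1 core 195 bases before its listed start and no partial MAF site. The first of the 2 Ms4a7 promoters listed, chr19:11336097-11336396, held neither. Of all 32851 promoters listed, 9.35% held the PU.1 core, 19.5% the partial MAF site and 1.93% both. These matches describe letters in the windows and say nothing on binding.

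The libraries held 42199775 to 61294707 UMIs over 5195 to 7836 barcodes. The filters kept 7623, 5918, 5092 and 5658 cells of RvD1 recipient, vehicle recipient, RvD1 donor and vehicle donor libraries, with medians of 5479, 5860, 6517 and 8073 UMIs. Between 4 and 14 cell barcodes were shared by any pair of libraries, and 1 of the shared barcodes belonged to a member, in the pair of RvD1 recipient and RvD1 donor libraries. Cells of a library are not replicates, so nothing below carries a test or a p-value. Levels are UMIs per 1000000 UMIs of the summed cells (CPM), ratios are of CPM, and the 95% intervals in brackets cover counting error only, not the spread between mice.

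Members were a larger share of donor than of recipient leukocytes. They made up 0.105% of RvD1 recipient cells (exact Clopper-Pearson interval 0.0453% to 0.207%) and 0.152% of vehicle recipient cells (0.0696% to 0.288%). In the donor libraries they made up 1.57% of RvD1 cells (1.25% to 1.95%) and 1.47% of vehicle cells (1.17% to 1.82%). The intervals of both donor libraries lie above those of both recipient libraries, while those of RvD1 and vehicle overlap within each origin. Set against classical monocytes (a UMI each of Ccr2 and Ly6c2, no C1q UMI and the same exclusions), members were 3.19% of both classes together in RvD1 recipient cells and 4.79% in vehicle recipient cells. They were 11.6% in RvD1 donor cells and 14.3% in vehicle donor cells. These shares carry no correction for how the cells were sorted, which the sources used here do not describe beyond CD45 and origin.

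Members were deep cells. Their median UMI counts were 13701.5, 13123, 15442.5 and 14875 in RvD1 recipient, vehicle recipient, RvD1 donor and vehicle donor libraries, and single members ranged from 860 to 37275 UMIs. The classical monocytes of the same libraries had medians of 11579, 13169, 15351 and 14833.5 UMIs. A doublet caller marked 1 member, in the vehicle donor library. In cells that should lack C1q, T cells held a C1q UMI in 0%, 0.185%, 0.611% and 1.12% of cells in the 4 libraries, and neutrophils in 0.122%, 0%, 0.357% and 0.151%. B cells held one in 0.109%, 0.235%, 1.15% and 0.454% of cells. The median depths were 7915 to 9964 UMIs in T cells, 5074 to 5620 in neutrophils and 4702 to 6685 in B cells, below those of members. Members held 83.9% of all C1q UMIs in RvD1 recipient cells, 73.5% in vehicle recipient cells, 88.2% in RvD1 donor cells and 81.0% in vehicle donor cells.

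The C1q sum per member, which the rule used, had medians of 13, 8, 23 and 18 UMIs in RvD1 recipient, vehicle recipient, RvD1 donor and vehicle donor cells, with highest values of 98, 37, 147 and 162. At the edge of the rule, 14 cells held 4 C1q UMIs and 15 members held 5. Of the cells with 4, Apoe was found in 12, Ms4a7 in 5, Ccr2 in 11 and H2-Aa in 12. Of the members with 5, Apoe was found in 11, Ms4a7 in 5, Ccr2 in 9 and H2-Aa in 11.

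**Figure D1:**
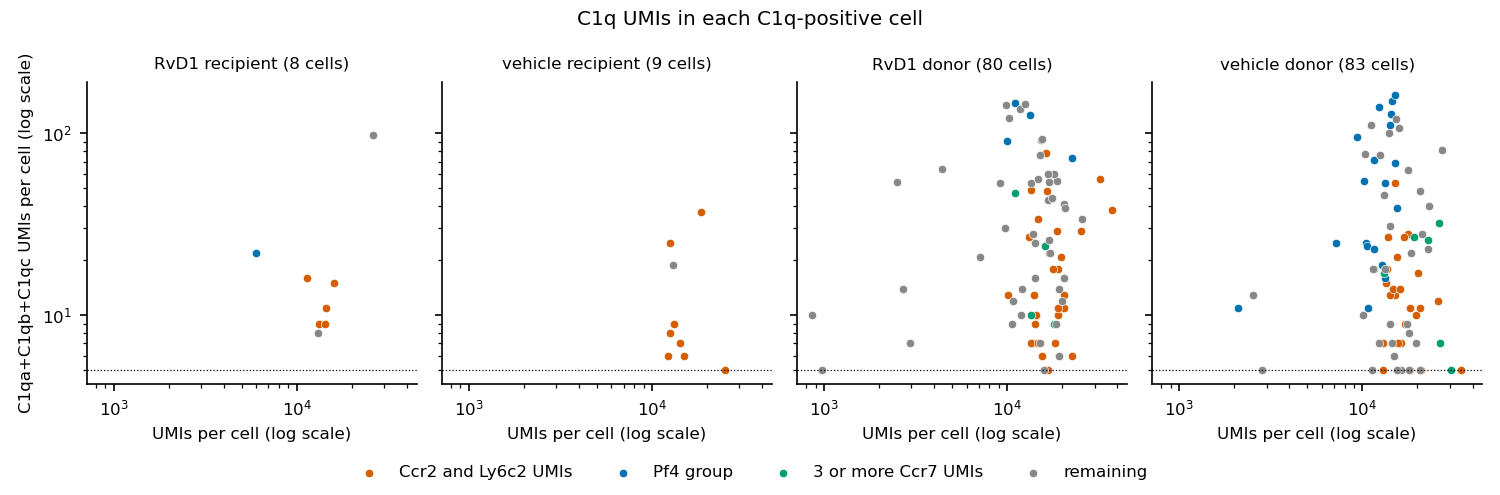
Sum of C1qa, C1qb and C1qc UMIs against all UMIs for each of the 180 C1q-positive cells, in 1 panel a library and on log axes, coloured by the 4 groups of cells described in the text; the dotted line is the minimum of 5. Recipient members number 8 and 9 and mostly carry Ccr2 and Ly6c2, while the Pf4 group (blue) is mostly in the vehicle donor panel, at up to 162 C1q UMIs.

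The label of macrophage was checked against markers. All 12 macrophage genes (among them Maf, Csf1r, Adgre1, Fcgr1, Mertk, Cd68, Mrc1, Cx3cr1, Aif1, Trem2 and Pf4) were found in members of each library. They summed to 3259, 2609, 2641 and 3185 CPM in members of RvD1 recipient, vehicle recipient, RvD1 donor and vehicle donor libraries, against 2102, 1897, 2219 and 1912 CPM in classical monocytes. Csf1r, the receptor for the growth factor M-CSF, was at 379 CPM in RvD1 donor members and 388 CPM in vehicle donor members, against 323 and 355 CPM in the monocytes of the same libraries. Ms4a7, a membrane protein of tissue macrophages, was found in 32 of 80 RvD1 donor members and 36 of 83 vehicle donor members. Apoe, the lipid carrier apolipoprotein E, was absent from 19 members of each donor library. T cell, B cell and mast cell genes were at 0 in recipient members. In donor members they summed to at most 7.36 CPM for any of these 3 lists, of which the rule itself used Cd3e and Cd79a. Neutrophil genes, which include S100a8 and S100a9 of the rule, summed to 228, 257, 254 and 294 CPM in members, in the library order above. In monocytes they summed to 387, 760, 550 and 760 CPM. In members, natural killer genes summed to 8.76, 0, 2.45 and 42.5 CPM, and endothelial genes to 43.8, 7.35, 27.8 and 40.1 CPM. Dendritic cell genes (9 genes) summed to 149 CPM in RvD1 donor and 418 CPM in vehicle donor members, against 57 and 114 CPM in monocytes. In recipient members they summed to 96.4 CPM with RvD1 and 29.4 CPM with vehicle, against 194 and 87.4 CPM in monocytes. Alveolar macrophage genes (14 genes, 5 of them used by the rule) summed to 628 and 251 CPM in RvD1 and vehicle donor members, against 1747 and 594 CPM in monocytes. Chil3, also among the markers of classical monocytes, gave most of these monocyte sums, and 487 and 79.5 CPM of the sums in donor members. The other genes of the list together were higher in donor members than in donor monocytes. Plasmacytoid dendritic cell genes (4 genes) summed to 303 and 242 CPM in RvD1 and vehicle donor members, against 355 and 595 CPM in monocytes. Nonclassical monocyte genes (9 genes) summed to 605 and 582 CPM in these donor members, against 546 and 799 CPM in classical monocytes. In recipient members they summed to 272 CPM with RvD1 and 882 CPM with vehicle, against 726 and 402 CPM in classical monocytes. Epithelial genes (3 genes) reached 1665 CPM in RvD1 recipient members because 1 cell held 188 of their UMIs, against 0, 6.54 and 18.5 CPM in members of the vehicle recipient, RvD1 donor and vehicle donor libraries. The members were thus mixed, and they are called C1q-positive cells here.

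A split made after the values were seen describes that mixture. Members with at least 3 UMIs of Ccr7, a chemokine receptor of migrating dendritic cells, were set apart first. Members with a UMI each of Ccr2, the receptor that draws monocytes from blood, and Ly6c2, a surface protein of classical monocytes, came next. Members with at least 10 UMIs of Pf4, a chemokine of platelets and of some tissue macrophages, followed, and the rest are called remaining cells. The splits are ranges and not types. Outside the Pf4 group, 4 cells had 5 to 9 Pf4 UMIs, all RvD1 donor cells, and inside it 4 cells had 10 to 14. In the vehicle donor library, 2 cells with 10 or more Pf4 UMIs fell in the Ccr2 Ly6c2 group. Among all members, 6 held 1 or 2 Ccr7 UMIs, 48 outside the Ccr7 group held Ccr2 but no Ly6c2, and 10 of the Ccr2 Ly6c2 cells had a single UMI of either gene.

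Ccr2 Ly6c2 cells were most of the recipient members and about as frequent in both donor libraries. They were 5 of 8 RvD1 recipient members, 8 of 9 vehicle recipient members, 29 of 80 RvD1 donor members (36.3%, 25.8% to 47.8%) and 24 of 83 vehicle donor members (28.9%, 19.5% to 39.9%). Their C1q sums were low, with a median of 11.5 UMIs over all 66. They carried other genes of classical monocytes: Plac8, a small protein of monocytes and neutrophils, was at 1719 CPM in RvD1 donor and 1722 CPM in vehicle donor Ccr2 Ly6c2 cells. The matrix proteoglycan gene Vcan was at 1063 and 768 CPM in the same cells. Apoe was present too, at 4197 CPM in RvD1 donor and 2562 CPM in vehicle donor Ccr2 Ly6c2 cells, and it was found in 63 of the 66. Many classical monocytes held it as well, 76.2% of those in the RvD1 donor and 67.3% in the vehicle donor library.

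Pf4 cells were 1 of 8 RvD1 recipient members, none of the 9 vehicle recipient members, 4 of 80 RvD1 donor members (5%, 1.38% to 12.3%) and 20 of 83 vehicle donor members (24.1%, 15.4% to 34.7%). The donor intervals overlap with a minimum of 5 Pf4 UMIs, which gave 8 of 80 RvD1 donor members (10%, 4.42% to 18.8%) and the same 20 of 83 vehicle donor members. In the vehicle donor library, all 20 held Apoe and Mrc1, the mannose receptor of tissue macrophages, 18 held Ms4a7, 13 held the folate receptor gene Folr2 and 10 held the haemoglobin scavenger receptor gene Cd163. Their median C1q sum was 46 UMIs. Plac8 was at 0 CPM in the Pf4 cells of both donor libraries. Over all donor members, Folr2 was found in 2 RvD1 and 13 vehicle cells, Lyve1, a hyaluronan receptor of perivascular macrophages, in 2 and 9, and Cd163 in 3 and 13. Of the other genes counted per cell from the list of 8 perivascular macrophage genes, Timd4 was found in 0 RvD1 and 6 vehicle donor members, Cbr2 in 7 and 21, Gas6 in 1 and 8, and F13a1 in 42 and 42. After thinning to 2000 UMIs, Folr2 was found in 0 and 11, Lyve1 in 0 and 3, and Cd163 in 1 and 2. The list summed to 272 CPM in RvD1 donor and 330 CPM in vehicle donor members, against 729 and 330 CPM in donor monocytes. F13a1, the A subunit of coagulation factor XIII and the only gene of the list with enough UMIs for a ratio, was at 256 and 197 CPM in these members (log2 ratio 0.38), against 724 and 321 CPM in donor monocytes.

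Ccr7 cells numbered 4 in RvD1 donor and 6 in vehicle donor members and were not found among recipient members. Macrophage genes were mixed in them. Apoe was at 0 CPM in the RvD1 donor and 319 CPM in the vehicle donor Ccr7 cells, and Ms4a7 was at 0 CPM in both. Adgre1 and Cd68 were lower than in the other groups of both donor libraries, though not absent. Mrc1 was found in 2 of 4 RvD1 donor and 5 of 6 vehicle donor Ccr7 cells. Its level there was not below that in the remaining cells of the same library. Zbtb46, a transcription factor of conventional dendritic cells, was found in 3 of 4 RvD1 donor and 6 of 6 vehicle donor Ccr7 cells. Fscn1, another gene of the dendritic cell list, had no UMI in the Ccr7 cells of either library. The 7 vehicle donor members that held Fscn1 were all Pf4 cells. H2-Aa, the alpha chain of MHC class II I-A, was at 13496 CPM in RvD1 donor and 10194 CPM in vehicle donor Ccr7 cells. This was the highest level among the 4 groups of cells in both donor libraries. Remaining cells were the largest group, at 79 of 180 members. They were 2 of 8 RvD1 recipient, 1 of 9 vehicle recipient, 43 of 80 RvD1 donor and 33 of 83 vehicle donor members. Of the donor ones, 29 and 21 held Apoe, 19 and 12 Ms4a7, and 38 and 29 H2-Aa. Zbtb46 was found in 6 and 7 of them, so it was not confined to the Ccr7 cells.

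**Figure D2:**
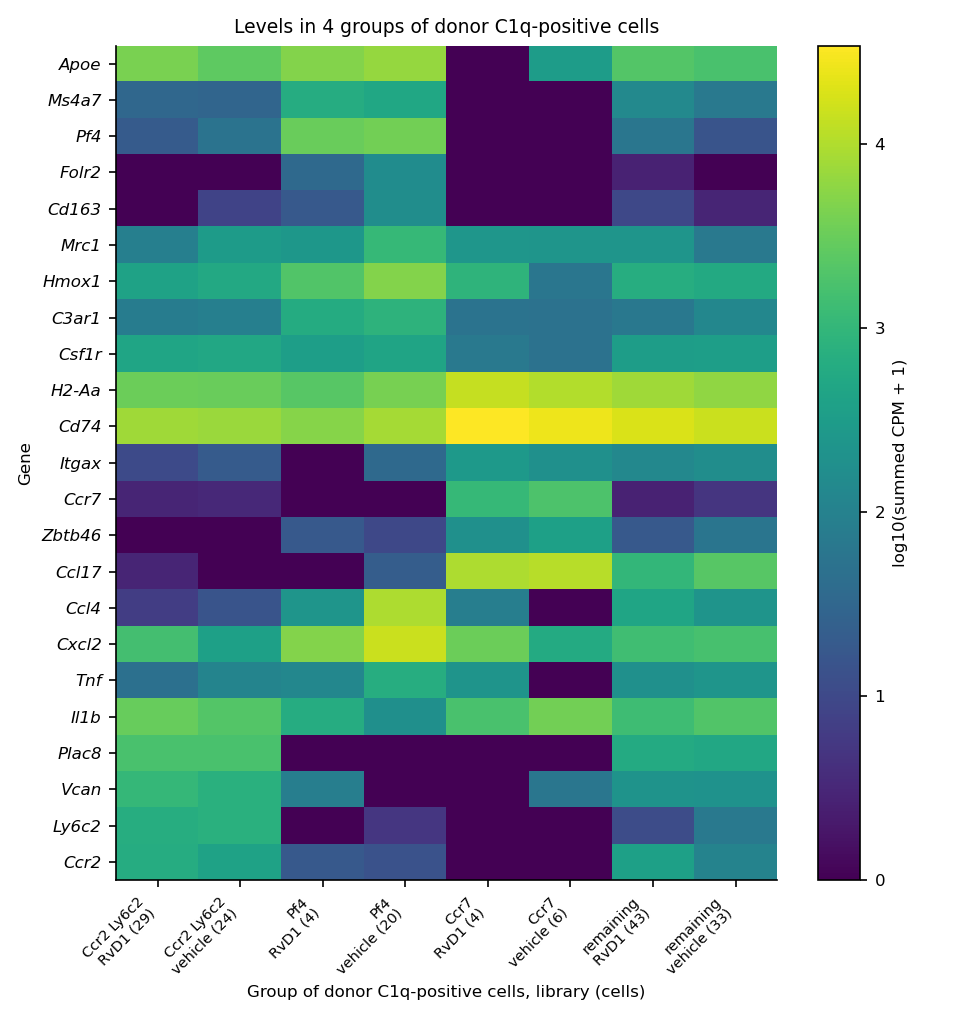
Summed level of selected genes, as log10(CPM + 1), in the 4 groups of C1q-positive donor cells, with RvD1 left of vehicle in each pair and the number of cells in brackets. Plac8 and Ly6c2 are high in the Ccr2 Ly6c2 cells, Folr2 and Cd163 in the vehicle Pf4 cells, and Ccl17 in the Ccr7 cells, where Apoe is at 0 and 319 CPM; Ccr2, Ly6c2, Pf4 and Ccr7 defined the groups.

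The chains of C1q were not in the same proportion in these groups. The rule used only their sum, so the proportion was free to vary. C1qa gave 15.2% of C1q UMIs in Ccr2 Ly6c2 cells (13.2% to 17.4%), against 31.1% in Pf4 cells (28.9% to 33.4%), 30.5% in remaining cells (28.8% to 32.1%) and 37.3% in Ccr7 cells (30.6% to 44.3%). The share in Ccr2 Ly6c2 cells was 10.0% in RvD1 recipient, 10.7% in vehicle recipient, 19.4% in RvD1 donor and 10.2% in vehicle donor members. In the donor libraries the Pf4 cells had 35.0% with RvD1 and 29.6% with vehicle, and the remaining cells 28.9% and 34.2%. C1qa was at 0 UMIs in 32 of 66 Ccr2 Ly6c2 cells, against 0 of 25 Pf4 cells, 10 of 79 remaining cells and 1 of 10 Ccr7 cells. Ccr2 Ly6c2 cells also had fewer C1q UMIs, so cells with 10 to under 30 C1q UMIs were compared. There the C1qa share was 11.9% in 33 Ccr2 Ly6c2 cells (9.34% to 14.9%), against 26.3% in 10 Pf4 cells (20.2% to 33.1%) and 25.9% in 23 remaining cells (21.7% to 30.5%).

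**Figure D3:**
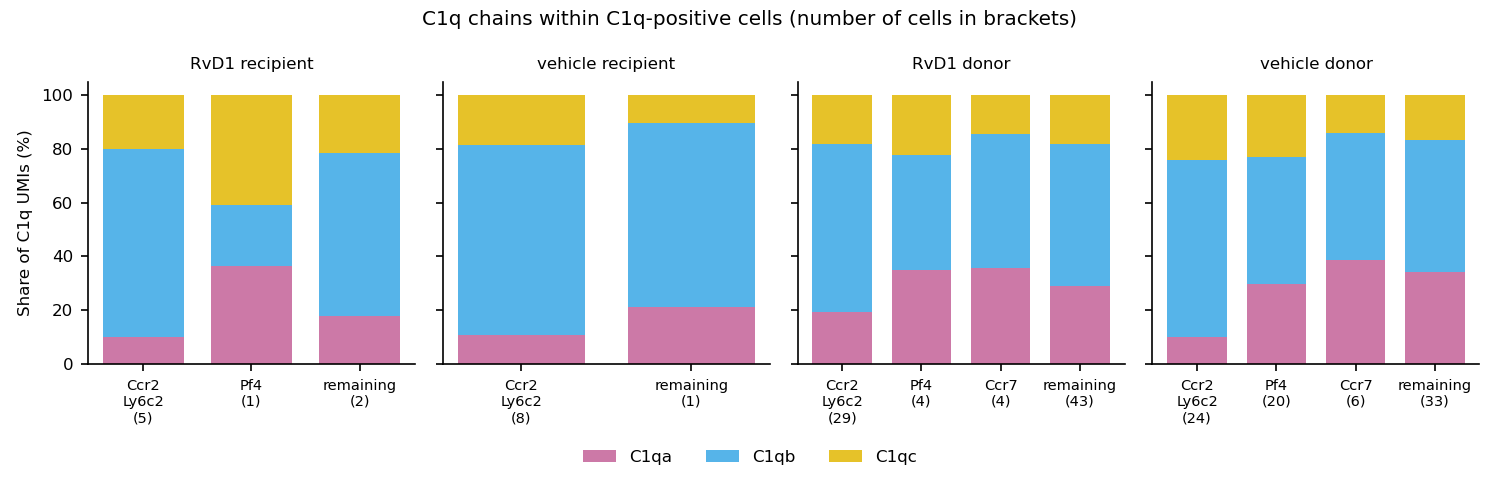
Share of C1q UMIs (%) from C1qa, C1qb and C1qc in each group of C1q-positive cells, in 1 panel a library, with the number of cells in brackets. The C1qa band is narrowest in the Ccr2 Ly6c2 cells of all 4 libraries, at 10.0% to 19.4%.

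Against classical monocytes, members had higher levels of most class II genes and of many chemokine genes, and lower levels of most monocyte markers. Of 11 macrophage genes with enough UMIs, 3 were at least 2-fold higher in each donor library and none lower (median log2 ratios 0.33 with RvD1 and 0.60 with vehicle), beside 2.83% and 4.11% of all genes higher. A gene was counted when its ratio was at least 2-fold and the classes held at least 100 UMIs together. In both donor libraries, 138 of 7019 genes were higher in members (1.97%) and 190 were lower (2.71%). The 10 genes with the largest ratios in both libraries, under the rule given with the methods, were Rnf180, Cd81, Cd63, Axl, Ms4a7, Fnbp1l, Mrc1, H2-Eb1, Dst and Cxcl16. Rnf180 is a membrane-bound ubiquitin ligase. It was at 139 CPM in RvD1 donor and 279 CPM in vehicle donor members, against 2.62 and 7.66 CPM in monocytes of the same libraries (log2 ratios 5.73 and 5.18). Within the members it was at 888 and 551 CPM in RvD1 and vehicle donor Ccr7 cells and at 3.80 and 2.39 CPM in Ccr2 Ly6c2 cells. The tetraspanin genes Cd81 and Cd63 had log2 ratios of 4.88 and 3.66 in RvD1 donor cells, and of 4.09 and 3.85 in vehicle donor cells. Axl, a receptor tyrosine kinase for the uptake of apoptotic cells, was at 62.2 and 77.2 CPM in RvD1 and vehicle donor members, against 2.83 and 6.34 CPM in monocytes. In Ccr2 Ly6c2 donor cells Axl was at 5.70 CPM with RvD1 and 2.39 CPM with vehicle. In remaining donor cells it was at 105.1 and 121.5 CPM, in Ccr7 cells at 170.8 and 101.5 CPM and in Pf4 cells at 35.0 and 101.6 CPM. Mrc1 was at 170.1 CPM in RvD1 donor members and 349.7 CPM in vehicle donor members, against 17.1 and 29.9 CPM in monocytes.

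The genes lowest in members against monocytes included genes of other cell types. The 10 lowest by the same rule included Siglech, Mctp2, Nkg7, Gzma, Ablim1, Ikzf3, Klra4, Il2rb and Klra8, of which Siglech is a gene of plasmacytoid dendritic cells and Nkg7, Gzma, Il2rb and the Klra genes are known from natural killer cells. Gzma, a granule protease, was at 0 CPM in RvD1 donor and 35.5 CPM in vehicle donor members, against 165 and 613 CPM in the monocytes. Monocytes with at least 2 UMIs summed over natural killer, T and plasmacytoid genes were 25.9%, 26.8%, 9.51% and 26.9% of the gate in RvD1 recipient, vehicle recipient, RvD1 donor and vehicle donor libraries, against 0, 0, 3 and 4 members; their part in the reported count was measured by leaving them out. Without those monocytes, 117 of 6405 genes were lower and 135 higher. The lowest genes then, chosen after the values were seen, included Pglyrp1 and G0s2.

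Genes of MHC class II presentation were higher in members than in monocytes in both donor libraries. Of the 11 genes listed, 9 held enough UMIs, and 7 of these were higher in RvD1 donor members, with a median log2 ratio of 2.52, beside 2.83% of all 7532 genes and a median of -0.18. In vehicle donor members 5 of 9 were higher, with a median of 1.30, beside 4.11% of 7398 genes and a median of -0.21; none was lower in either. H2-Aa was at 5775 and 5155 CPM in RvD1 and vehicle donor members, against 440.2 and 832 CPM in monocytes. It had 2812 and 2270.5 CPM in RvD1 and vehicle recipient members, against 955 and 597 CPM in recipient monocytes. H2-Aa was found in 66 of 80 RvD1 donor and 72 of 83 vehicle donor members. Cd74, the invariant chain that guides class II molecules, was at 14018 and 12335 CPM in these donor members, against 1291 and 2415 CPM in monocytes. Ciita, the master activator of class II genes, was at 74.4 CPM in RvD1 donor members and 93.4 CPM in vehicle donor members, against 13 and 37.9 CPM in monocytes.

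Chemokine genes were higher in members as well, and more of them in the vehicle donor library. Of 21 genes listed, 17 held enough UMIs in each donor library. In RvD1 donor cells 9 of 17 were higher in members and 2 lower (median log2 ratio 1.20), beside 2.83% higher and 6.23% lower over all genes. In vehicle donor cells 13 were higher and 1 lower (median 3.84), beside 4.11% and 10.2% over all genes. Ccl17, which attracts T cells through CCR4, was at 937 and 2079.7 CPM in RvD1 and vehicle donor members, against 1.26 and 4.89 CPM in monocytes, and at 0 CPM in members of both recipient libraries. It was found in 14 RvD1 donor and 19 vehicle donor members. The 4 RvD1 donor Ccr7 cells held 552 of its 1146 UMIs, and the 6 vehicle donor Ccr7 cells 1543 of its 2694. The remaining cells held 593 and 1146 of them, and the Ccr2 Ly6c2 and Pf4 cells together 1 and 5. Cxcl16, a membrane-bound ligand of CXCR6, was at 214 and 323 CPM in donor members, against 25.4 and 46.0 CPM in monocytes. The lower gene in both was Ccl5, at 58.1 and 226 CPM in RvD1 and vehicle donor members, against 389 and 1149 CPM in monocytes; Ccl5 is also a gene of natural killer and T cells, whose part in this was not tested. Without the Pf4 cells, which were chosen by a gene of this list, the chemokine median in vehicle donor cells was 1.10.

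**Figure D4:**
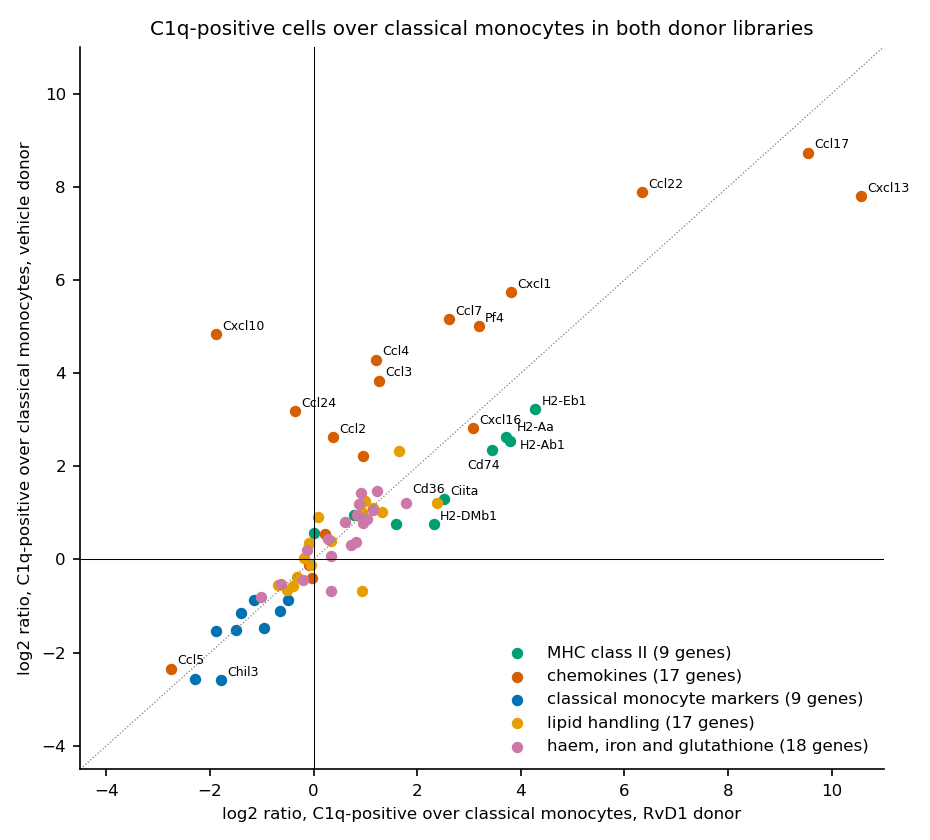
Log2 ratio of summed CPM of C1q-positive cells over classical monocytes in the RvD1 donor library (x) and the vehicle donor library (y), for genes of 5 lists with at least 100 UMIs in each; the dotted line marks equal ratios. MHC class II genes lie above 0 on both axes, classical monocyte markers below 0, and most chemokines above the dotted line; Cxcl13 had no UMI in vehicle donor monocytes, so its y value is a lower bound.

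Among the markers of classical monocytes that the rule did not use, 6 of 9 were lower in RvD1 donor members (median log2 ratio -1.40) and 7 of 9 in vehicle donor members (median -1.48), and none was higher, beside 6.23% and 10.2% of all genes lower. Vcan was at 562 and 335 CPM in RvD1 and vehicle donor members, against 1478 and 741 CPM in monocytes. Hp, haptoglobin, was at 240.4 and 156 CPM in the same members, against 889 and 455 CPM in monocytes. In recipient members Hp was at 526 CPM with RvD1 and 448 CPM with vehicle, against 655 and 682 CPM in recipient monocytes.

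Lists of phagocyte functions were read against the shares over all genes, 2.83% higher and 6.23% lower with RvD1 and 4.11% higher and 10.2% lower with vehicle. Of 9 complement genes outside C1q with enough UMIs, 2 were higher and 2 lower in RvD1 donor members (median log2 ratio -0.14), and 2 were higher and 1 lower in vehicle donor members (median -0.27). C3ar1, the receptor for the fragment C3a, was at 94.9 and 235 CPM in RvD1 and vehicle donor members, against 43.9 and 36.9 CPM in monocytes. C3, the central protein of the cascade, was at 93.2 and 62.5 CPM in these members, against 238 and 122 CPM in monocytes. Lipid-handling genes were higher for 4 of 17 in RvD1 donor and 6 of 17 in vehicle donor members (medians 0.33 and 0.39), with none lower. Cd36, a scavenger receptor for oxidised lipid, was at 213 and 317 CPM in donor members, against 40.7 and 138 CPM in monocytes, and Apoe at 3036 and 2729.7 CPM, against 1586 and 1354 CPM. Genes of haem, iron and glutathione had medians of 0.77 and 0.44, with 4 of 18 and 5 of 19 higher and 1 and 0 lower. Blvrb, biliverdin reductase B of haem breakdown, was at 116 and 87.2 CPM in these members, against 52.2 and 41.7 CPM in monocytes. Lysosomal genes were higher for 2 of 20 and 3 of 19 (medians 0.20 and 0.31), and none of 6 Fc receptor genes was 2-fold different in either library. Of 11 genes of apoptotic cell uptake, 1 was higher and 1 lower in members of each donor library (medians 0.19 with RvD1 and -0.11 with vehicle).

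Resolvin receptors and eicosanoid genes were looked at because RvD1 was given. Fpr2, a receptor that binds RvD1, was at 0, 36.7, 16.4 and 9.26 CPM in members of RvD1 recipient, vehicle recipient, RvD1 donor and vehicle donor libraries, against 39.5, 48.4, 51.3 and 41.1 CPM in monocytes. It was found in 11 of 80 RvD1 donor and 9 of 83 vehicle donor members. The donor ratios of members over monocytes were -1.65 (-2.37 to -1.01) with RvD1 and -2.15 (-3.12 to -1.32) with vehicle on the log2 scale. Over the list of resolvin receptors and eicosanoid enzymes, 1 of 9 genes was higher and 1 lower in RvD1 donor members (median -0.46), and 2 of 10 higher and 2 lower in vehicle donor members (median -0.52). Over all genes 2.83% were higher and 6.23% lower with RvD1, and 4.11% and 10.2% with vehicle. Alox5ap, the partner protein of 5-lipoxygenase, was at 651 and 367 CPM in RvD1 and vehicle donor members, against 1099.9 and 586 CPM in monocytes.

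RvD1 against vehicle was compared within donor members, where both libraries held over 50 of them. Of 3589 genes, 53 were at least 2-fold higher in RvD1 members (1.48%) and 188 lower (5.24%), with a median log2 ratio of -0.07. In donor monocytes of the same 2 libraries, 141 of 8797 genes were higher (1.6%) and 594 lower (6.75%), with a median of -0.12. Members and monocytes share the libraries, so their values are set side by side. Without the Pf4 cells 85 genes were lower in RvD1 donor members.

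The higher genes in RvD1 donor members were led by genes that included Chil3, Tmem37, Erp29, H2-DMb1, Cdk2ap2, Hpgd, Wwox, Krtcap2 and Pilra. Chil3 (Ym1), a secreted chitinase-like protein, was at 487 CPM in RvD1 donor members, against 79.5 CPM in vehicle donor members, a log2 ratio of 2.62 (2.31 to 2.93). In donor monocytes it was at 1692 and 481 CPM, a log2 ratio of 1.81. Recipient members had it the other way, at 70.1 CPM with RvD1 and 287 CPM with vehicle, where 1 cell held all of the RvD1 UMIs. In the Ccr2 Ly6c2 donor cells Chil3 was at 966 CPM with RvD1 and 162 CPM with vehicle. Tmem37, a membrane protein related to calcium channel subunits, was at 77.7 CPM in RvD1 and 13.1 CPM in vehicle donor members (log2 ratio 2.57, 1.81 to 3.40), against 15.7 and 12.7 CPM in donor monocytes (0.31). It was found in 29 of the RvD1 and 8 of the vehicle donor members.

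H2-DMb1, a chain of the chaperone that loads peptide onto class II molecules, was at 449.8 CPM in RvD1 donor members, against 176 CPM in vehicle donor members (log2 ratio 1.35, 1.13 to 1.58). In donor monocytes it was at 90.2 and 104 CPM (-0.20, -0.34 to -0.06). It was higher with RvD1 in the Ccr2 Ly6c2 cells (450.0 and 222 CPM) and in the remaining cells (517 and 173 CPM). The class II genes H2-Aa and Cd74 differed little between the donor libraries in members (log2 ratios 0.16 and 0.18), while in monocytes they had -0.92 and -0.90. Over the class II list the median was 0.16 in members and -0.90 in monocytes. Ccr2, which the rule did not use for members, was at 449.8 and 174 CPM in RvD1 and vehicle donor members (1.37, 1.14 to 1.60) and was found in 60 of 80 and 39 of 83. After thinning each cell to 2000 UMIs, which left out 2 RvD1 cells, it was found in 53.8% and 16.9%. In donor monocytes, which were chosen by Ccr2, its log2 ratio was 0.72.

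The lower genes in RvD1 donor members were led by Pdgfa, Egr1, P2rx7, Ccnd2, Slc39a12, Pmp22, Ccl3, Pf4, Hspa1a and Ccl7. Egr1, an immediate early transcription factor, was at 65.4 CPM with RvD1, against 352 CPM with vehicle (log2 ratio -2.43), and in donor monocytes at 51.0 and 73.4 CPM (-0.53). Pdgfa, a growth factor for fibroblasts, was at 18.0 CPM in RvD1 and 125 CPM in vehicle donor members (-2.80, -3.51 to -2.15). Ccl3, a chemokine that binds CCR1, was at 133 CPM with RvD1 and 546 CPM with vehicle in donor members (-2.03), but at 55.6 and 38.2 CPM in donor monocytes (0.54). Leaving out the Pf4 cells turned Ccl3 to 0.17 and Ccl7 to 0.48, and brought Egr1 to -0.97. Ccnd2, cyclin D2, had log2 ratios of -2.35 in members and -2.21 in monocytes.

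Chemokine genes as a list were lower in RvD1 donor members: 11 of 17 were at least 2-fold lower and 1 higher, with a median log2 ratio of -1.61. Over all genes 5.24% were lower in these members. In donor monocytes 1 of 13 was lower and 1 higher, with a median of 0.23, beside 6.75% of all genes lower. Without the Pf4 cells the median in members was 0.08. Pf4 is itself a gene of the list and among the lower ones, and the cells left out were chosen by it after the values were seen. The part of Pf4 in that change was thus fixed by the choice. Ccl4, an inflammatory chemokine, was at 9263 CPM in the 20 vehicle donor Pf4 cells, against 228 CPM in the 4 RvD1 donor Pf4 cells. In the remaining donor cells Ccl4 was at 470.2 CPM with RvD1 and 219 CPM with vehicle. In vehicle donor members as a whole it was at 1779 CPM, with 32% of its UMIs in 1 cell, against 240.4 CPM in RvD1 donor members. Ccl7, a ligand of CCR2, was at 105 and 1621 CPM in RvD1 and vehicle donor Pf4 cells, and at 174 and 135 CPM in remaining donor cells.

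**Figure D5:**
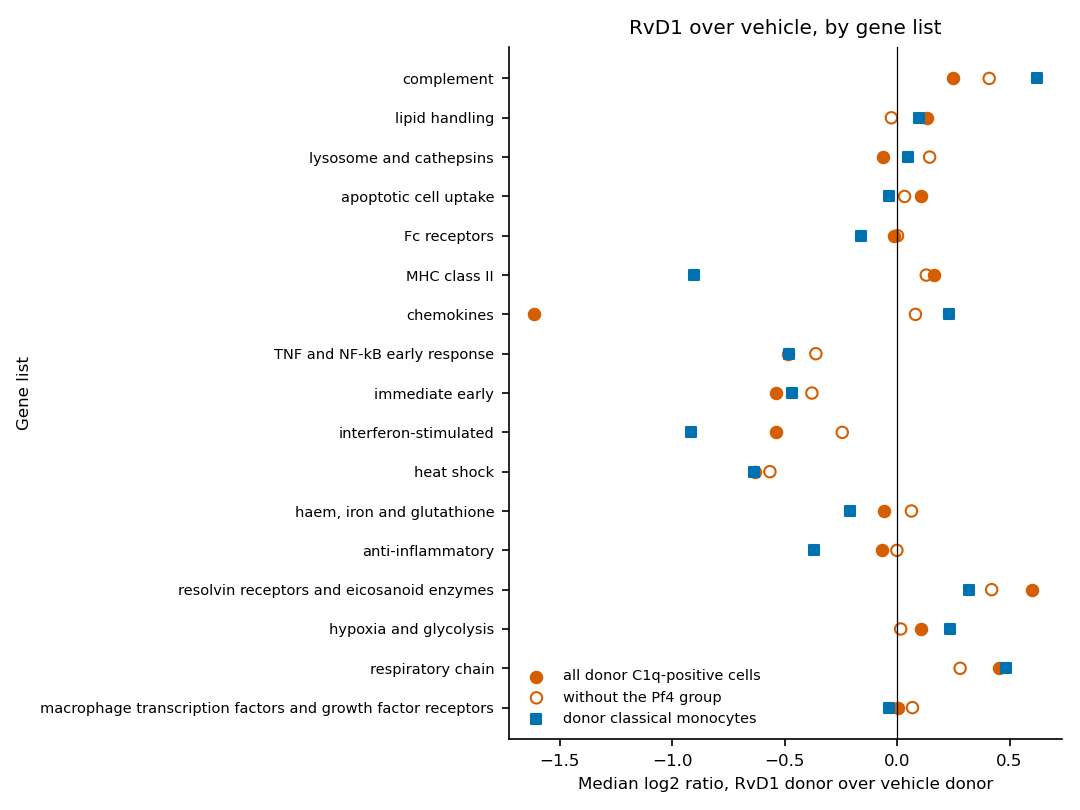
Median log2 ratio of the RvD1 donor over the vehicle donor library for the genes of 17 lists with at least 100 UMIs, in all donor C1q-positive cells (filled circles), without the Pf4 group (open circles) and in donor classical monocytes (squares). Chemokines lie at -1.61 in all members and at 0.08 without the Pf4 cells, and MHC class II genes at 0.16 in members and -0.90 in monocytes.

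The other lists are given for donor members and then donor monocytes, beside 5.24% and 6.75% of all genes lower and 1.48% and 1.6% higher. Early response genes of TNF and NF-kB had medians of -0.49 in members and -0.48 in monocytes, with 4 of 26 and 2 of 27 lower and none higher. Immediate early genes had medians of -0.54 and -0.47, with 5 of 22 and 4 of 25 lower and 0 and 1 higher. The heat shock list stood at -0.63 and -0.64, with 3 of 11 and 3 of 15 lower and none higher. Respiratory chain genes had 0.45 in members and 0.49 in monocytes, none of the 21 reaching 2-fold in either. Interferon-stimulated genes had -0.54 in members, with 3 of 7 lower, and -0.92 in monocytes, with 10 of 25 lower. Complement genes outside C1q had 0.25 in members, with 1 of 7 lower, and 0.62 in monocytes, with 2 of 10 higher. Resolvin receptors and eicosanoid enzymes had 0.60 in members, with 1 of 7 higher and 1 lower, and 0.32 in monocytes, with 1 of 11 lower. Anti-inflammatory genes had -0.07 in members, with 1 of 19 higher and 4 lower, and -0.37 in monocytes, with 3 of 21 higher and 1 lower. Tnf was at 127 CPM in RvD1 and 245 CPM in vehicle donor members, and at 31.7 and 60.5 CPM in donor monocytes (log2 ratios -0.95 and -0.93). Il1b was at 2052 and 1867 CPM in these members and at 1994 and 1769.7 CPM in monocytes. Lipid-handling, lysosomal, apoptotic cell uptake and Fc receptor lists had medians from -0.06 to 0.13 in members and from -0.16 to 0.10 in monocytes. In members 2 of 16 lipid-handling genes were lower, and no other gene of these lists reached 2-fold. In monocytes 2 of 17 lipid-handling, 2 of 12 uptake and 1 of 6 Fc receptor genes were lower, and 1 of 20 lysosomal genes was higher. Hypoxia and glycolysis genes had 0.10 in members, with 0 of 14 lower, and 0.24 in monocytes, with 1 of 20 lower. Macrophage transcription factors and growth factor receptors had 0.005 and -0.03, with 0 of 18 and 1 of 20 lower. Genes of haem, iron and glutathione had -0.06 and -0.21, with 3 of 16 and 3 of 19 lower. None of these lists had a higher gene. Of the haem list, Hmox1, haem oxygenase 1, was at 627 CPM with RvD1 and 1298 CPM with vehicle in donor members (-1.05). It was at 1996 and 4911 CPM in the Pf4 cells among them.

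Recipient members were too few for counts of genes, and their values are set beside those of donor members. Apoe was at 6729 CPM in RvD1 recipient and 3036 CPM in RvD1 donor members, and at 4629 CPM in vehicle recipient and 2729.7 CPM in vehicle donor members. All 17 recipient members held Apoe, as did 67.5% of RvD1 recipient and 64.8% of vehicle recipient classical monocytes. Plac8 was at 1954 CPM in RvD1 recipient members, against 1021 CPM in RvD1 donor members, and at 3211 CPM in vehicle recipient members, against 763 CPM in vehicle donor members. Cd74 was at 7903 CPM in RvD1 recipient members, against 14018 CPM in RvD1 donor members, and at 4769 CPM in vehicle recipient members, against 12335 CPM in vehicle donor members. Of the 8 perivascular macrophage genes, Folr2 and Lyve1 were at 0 CPM in all 17. Timd4, Cd163 and Cbr2 were each found in 1 RvD1 recipient member. F13a1 was found in 6 of 8 RvD1 and 8 of 9 vehicle recipient members. The list summed to 666 CPM in RvD1 recipient and 411 CPM in vehicle recipient members, against 474 and 561 CPM in recipient monocytes. In RvD1 and vehicle donor members it summed to 272 and 330 CPM. The RvD1 recipient level of Cd81, at 254 CPM, had 97% of its UMIs in 1 cell.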

How the data were processed

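The authors deposited 1 matrix of UMI counts per library (10x Chromium 3' v3), with 32285 genes and no normalization. Cell Ranger 7.0.1 (RvD1) and 6.1.1 (vehicle) are named per the file headers. Seurat 4.0.0 and mm10 are named per the submitters' processing notes. The sources used here do not say whether intronic reads were counted. Intron counting and the software version can change the counts of single genes.

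Barcodes under 200 genes or over 10% mitochondrial UMIs were dropped. Counts of cells in a class were summed per library, divided by the class total and given as CPM. Ratios carry exact binomial intervals, levels exact Poisson and shares exact Clopper-Pearson intervals at 95%. Where a class had no UMI of a gene in a library, 3 counts stood in for it as the floor. Ratios were counted at 2-fold with at least 100 UMIs over both sides and 50 cells a side. Scrublet (scanpy 1.11.5) called doublets at 0.8% per 1000 cells, and called cells were kept. Classical monocytes had at least 1 UMI each of Ccr2 and Ly6c2, no C1q UMI and the members' exclusions. B cells had at least 2 Cd79a UMIs, T cells at least 2 Cd3e UMIs, and neutrophils at least 5% of UMIs from S100a8 and S100a9. Named genes were the 10 highest and 10 lowest per comparison. They ranked by the smaller absolute ratio of both donor libraries (members over monocytes), or by the interval bound nearest 0 (RvD1 over vehicle). Genes with over 20% of UMIs in 1 cell, genes of the rules, and ribosomal, mitochondrial, sex-linked and unnamed genes were left out of the ranking. The list and marker genes were added. The interval code was tested on simulated data. The members, the lists and the comparisons were chosen with earlier results of these data known. Python 3.11.15, scipy 1.17.1 and pandas 2.3.3 were used. A few genes are not reported here.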

Additional observations from a re-analysis of the deposited data

Results flagged for a closer look

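Cxcl10, a chemokine induced by interferon, stood on opposite sides of monocytes in the donor libraries. Its log2 ratio of C1q-positive cells over classical monocytes was -1.89 (-3.22 to -0.82) in the RvD1 donor library and 4.83 (4.51 to 5.16) in the vehicle donor library. Its level was 5.72 CPM in RvD1 donor members, against 361 CPM in vehicle donor members, and 21.2 and 12.7 CPM in donor monocytes. It was found in 6 RvD1 donor and 18 vehicle donor members, and 1 vehicle donor cell held 50% of its UMIs there. The difference between the ratios was not tested, because each group is 1 library.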

How the results depend on the processing

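With a C1q minimum of 3 UMIs the vehicle donor share of members was 1.93%. With a minimum of 10 the shares were 0.0507% in vehicle recipient, 1.24% in RvD1 donor and 1.06% in vehicle donor cells. With C1q at 0.1% or more of a cell's UMIs they were 0.0394%, 0.0507%, 1.06% and 0.901% in RvD1 recipient, vehicle recipient, RvD1 donor and vehicle donor cells. With at least 3 C1q UMIs after thinning to 2000 they were 0.0271%, 0.0341%, 0.918% and 0.791%. Without cells holding 2 or more UMIs of other lineages the donor shares were 1.10% with RvD1 and 0.778% with vehicle. The donor shares stayed above the recipient shares in these settings.

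Genes higher in RvD1 than vehicle donor members (53 as reported) numbered 103 with the 0.1% minimum, 95 after thinning, 32 without other lineages, 134 at a minimum of 50 UMIs and 20 at 200. Genes lower (188) numbered 65 without other lineages, 323 at 50 UMIs, 91 at 200, 93 without cells below the class median depth and 85 without the Pf4 cells. Genes lower in members than monocytes (190) numbered 303 after thinning, 81 without other lineages, 125 with the median ratio set to 0, 328 at 50 UMIs, 109 at 200 and 90 without cells below the median depth. They numbered 344 with monocytes gated by Ccr2, Ly6c2 and C1q only, 126 with 2 UMIs of Ccr2 and of Ly6c2, 117 without natural killer, T and plasmacytoid UMIs and 419 without the Ccr2 Ly6c2 members. Genes higher in members (138) numbered 84 at 200 UMIs and 77 without cells below the median depth. Leaving out cells or changing the minimum of UMIs can also change how many genes are counted over. These numbers are therefore not shares of the same genes.

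The direction turned for Hspa1a, RvD1 over vehicle, to 0.063 without cells below the median depth, and without the Pf4 cells for the chemokine median (0.081), Ccl3 (0.17) and Ccl7 (0.48). The cause was not tested. Of the other values, 115 of lists moved by more than their counting interval and 853 did not, and 325 of single genes moved and 933 did not. Leaving out Pf4, Ccr7 or Ccr2 Ly6c2 cells, the lymphoid-free monocyte gate and the lower Pf4 minimum were added after seeing the data. A gene short of the minimum UMIs under a setting was given no value there. No paired analysis was possible because each group has 1 library, which also means that no replicate could be left out. Intervals cover counting error only, and 8 and 9 recipient members limit every recipient value.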

Other observations

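Hpgds, a prostaglandin D synthase, was at 18.8 CPM in RvD1 donor and 78.0 CPM in vehicle donor C1q-positive cells (log2 ratio -2.05, -2.77 to -1.39), against 3.36 and 5.68 CPM in donor monocytes. Hpgd, which degrades prostaglandins and is also known to oxidise resolvins, was at 97.3 CPM in RvD1 and 33.2 CPM in vehicle donor members (1.55, 1.04 to 2.09), against 62.9 and 43.6 CPM in donor monocytes (0.53). In recipient members Hpgd was at 228 CPM with RvD1, 65% of it in 1 cell, and at 7.35 CPM with vehicle.

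Cd86, a costimulatory ligand for T cells, was at 342 CPM in RvD1 and 768 CPM in vehicle donor members (log2 ratio -1.17), and at 200.1 and 395 CPM in donor monocytes (-0.98). It thus had the opposite sign to H2-DMb1 in members. Il1rn, the interleukin-1 receptor antagonist, was at 252 CPM in RvD1 and 781 CPM in vehicle donor members (-1.63), against 124 and 183 CPM in donor monocytes (-0.56).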
